A study of Mus musculus with 583 samples.

Results

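The genes described are Lin28a and Lin28b, their partner in the let-7 pathway Trim71, and 7 genes of the microRNA processing machinery, Dgcr8, Drosha, Dicer1, Ago1, Ago2, Xpo5 and Tarbp2. They were chosen by name, and their rows were found by matching the Ensembl identifiers of the count table to symbols in GENCODE M21. All 10 genes had 1 row each, of 38924 mouse gene rows in the table. The cells were of J1, an embryonic stem cell line of the mouse, and all had been kept in 2i/LIF, a medium that holds such cells in the naive ground state. No genotype, treatment or time differed between groups: the groups are 6 single-cell RNA-seq methods, each with replicate libraries A and B, and the 12 libraries held 583 cells. The question is how the same pathway looks through each method.

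The full-length methods were Smart-seq2 (80 and 77 cells in libraries A and B) and Smart-seq / C1 (69 and 61 cells, captured on the Fluidigm C1 chip). Their values were taken as reads along the transcript. The tag methods read the 3' end of a transcript and count unique molecular identifiers (UMIs). Of these, CEL-seq2 (34 and 37 cells, also captured with C1 chips) and MARS-seq (29 and 36 cells) amplify by in vitro transcription. Drop-seq (42 and 34 droplet barcodes) and SCRB-seq (39 and 45 FACS-sorted cells) amplify by PCR. Libraries held 17630767 to 34984056 counts for full-length methods and 583302 to 2784441 for tag methods. The median cell of a library held 269281 to 439870 reads or 16188 to 74255 UMIs. A read and a UMI are not the same unit of RNA, so a difference between the classes is one of what each method recovers. No source says that A and B came from separate cultures. The p-values between methods weigh a difference against the spread of the deposited libraries within methods, a spread that may be technical alone.

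In Drop-seq, 29 of the 42 barcodes of library A and 12 of the 34 of library B lay 1 base from another barcode of their library, and joining such barcodes left 25 and 28. In the other methods, 19 to 66 well labels or barcodes occurred in both A and B, and in Drop-seq 0 did. All 10 naive and core stem cell markers were seen in every library, with summed levels of 3164 to 7543 CPM (counts scaled to the same total in each library). Markers of primed stem cells summed to 70.3 to 487 CPM, of neural cells to 25.5 to 152, of primitive endoderm to 0 to 21.0 and of fibroblasts to 0.438 to 38.0.

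A microRNA is cut from its primary transcript by Drosha with its RNA-binding partner Dgcr8, carried out of the nucleus by Xpo5 (exportin-5), trimmed to a duplex by Dicer1 with Tarbp2, and loaded onto an Argonaute protein such as Ago1 or Ago2. LIN28 proteins bind let-7 precursors and hold back their maturation, and LIN28A recruits the terminal uridylyltransferases that tail them for decay. Mature let-7 in turn represses Lin28a, Lin28b and Trim71, so the pathway forms a loop of mutual repression. In mouse embryonic stem cells Lin28a and Trim71 are well known as expressed and let-7 as scarce, while the miR-290 family is the abundant one.

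The let-7 sequences show both sides of that loop. RefSeq (GRCm38.p6) holds 9 different mature 5p microRNAs of the family from 11 loci, and all carry the seed GAGGUAG. The following 3 are shown because they share the seed and differ outside it, and miR-294-3p and miR-295-3p of the miR-290 family are shown beside them for their different seed, AAGUGCU. Capitals mark the seed, bases 2 to 8.
let-7a-5p: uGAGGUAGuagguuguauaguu
let-7g-5p: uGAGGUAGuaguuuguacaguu
miR-98-5p: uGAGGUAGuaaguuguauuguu
miR-294-3p: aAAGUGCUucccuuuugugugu
miR-295-3p: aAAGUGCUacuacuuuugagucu

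LIN28 proteins are known to hold a GGAG stretch in the loop of let-7 precursors. The letters GGAG occurred between the arms of 8 of the 11 let-7 family hairpins with both arms annotated (72.7%), against 52 of 644 such mouse hairpins of any family (8.07%). Mirlet7c-2, Mirlet7b and Mir98 lacked them. The hairpins of let-7g (chr9:106178840-106178927, plus strand) and let-7b (chr15:85707319-85707403, plus strand) are shown as one with and one without the stretch, which is in capitals.
let-7g hairpin: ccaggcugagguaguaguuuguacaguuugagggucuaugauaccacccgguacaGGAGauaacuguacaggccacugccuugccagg
let-7b hairpin: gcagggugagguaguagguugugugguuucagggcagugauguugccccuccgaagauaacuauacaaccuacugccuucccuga

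The match to the let-7 seed in a transcript is CTACCTC, searched on the transcript strand of the longest annotated 3' UTR. Trim71 held 4 matches in 5512 nt, all followed by A, a base that favours repression by let-7. Lin28b held 4 in 4445 nt, of which 1 was followed by A, and Lin28a held 2 in 2775 nt, both followed by A. Of 3' UTRs of like length, 0.191% held as many matches as Trim71, 0.207% as many as Lin28b and 1.63% as many as Lin28a. Ago2 held 3 in 11064 nt, as did 1.94% of UTRs of like length, and Tarbp2 held 1 in 334 nt. No match lay in the UTRs of Dgcr8, Drosha, Dicer1, Ago1 or Xpo5, and over all 21037 genes with a 3' UTR 9.02% held at least 1. Below are both matches of Lin28a, all 4 of Trim71 and the first of Lin28b, with the match in capitals and the base after it last. Coordinates are of GRCm38, and all 3 genes lie on the minus strand.
Lin28a, chr4:134005189-134005218: ttggagtgcacagcctgttgaaCTACCTCa
Lin28a, chr4:134004551-134004580: atgctttgagatcgccacaaacCTACCTCa
Trim71, chr9:114512472-114512501: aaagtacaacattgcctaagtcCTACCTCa
Trim71, chr9:114512376-114512405: cctgtgaagtgataatttctatCTACCTCa
Trim71, chr9:114509047-114509076: gattttgtttagtatggattttCTACCTCa
Trim71, chr9:114509021-114509050: ctcaattttggcaaaaagttgtCTACCTCa
Lin28b, chr10:45381022-45381051: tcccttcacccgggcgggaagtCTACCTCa
A match of letters is not a measured site, and mature microRNAs were not measured here.

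**Figure D1:**
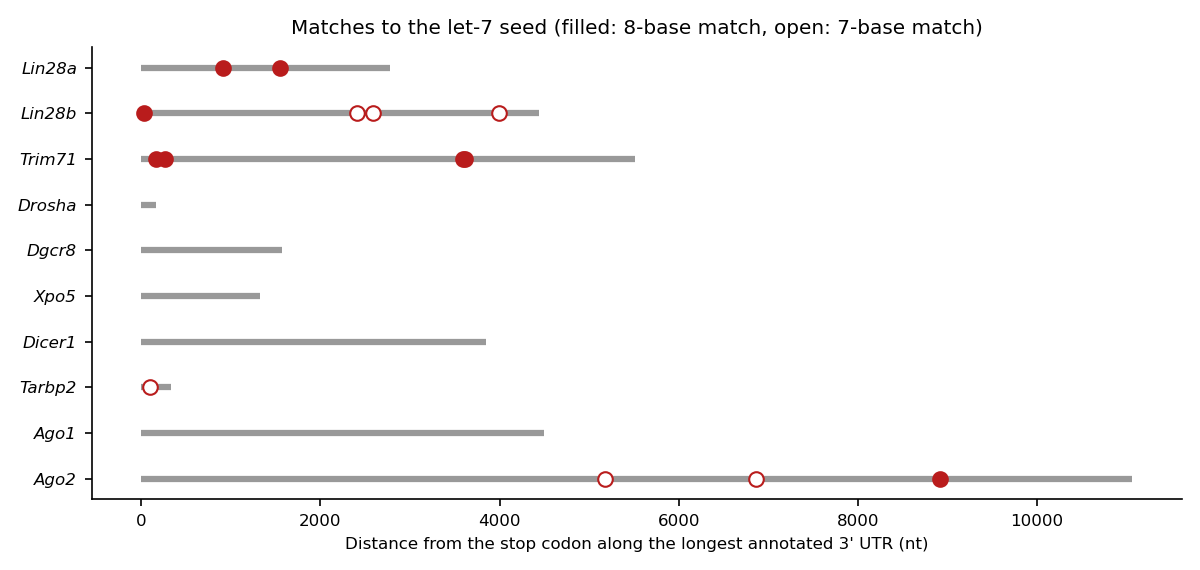
Position of the let-7 seed match (nt from the start of the longest annotated 3' UTR) in each of the 10 genes, with the UTR drawn to scale as a line; filled points are matches followed by A. Trim71 and Lin28b carry 4 matches each, Ago2 3, Lin28a 2 and Tarbp2 1.

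In the annotation of GRCm38 (mm10), Lin28a spans chr4:134003330-134018841, Lin28b chr10:45376620-45486395 and Trim71 chr9:114507133-114564369, all on the minus strand. Drosha spans chr15:12824815-12935291 (plus) and Dgcr8 chr16:18253948-18289246 (minus). Xpo5 spans chr17:46202782-46243598 (plus), Dicer1 chr12:104687742-104751952 (minus) and Tarbp2 chr15:102518192-102523676 (plus). Ago1 spans chr4:126435012-126468583 and Ago2 chr15:73095844-73184935, both on the minus strand. Some counts are uncertain in their source. Of the 31-base words of the annotated transcripts, Tarbp2 shares 16.5% with other genes (the most with Gm18584), Dgcr8 9.44% (the most with Gm49776), Ago2 5.98% (Gm6088) and Ago1 2.26% (Ago3). Exons of Dgcr8 overlap 825 bases of Trmt2a on the other strand and those of Ago2 overlap 219 bases of Chrac1. Whether counting used strand is not given in the sources used here, so reads from such overlaps cannot be told apart.

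Within full-length libraries, levels of different genes can be set side by side as CPM per kilobase of the longest transcript. On this scale Lin28a averaged 49.2 (27.0 to 101 over 4 libraries) and Trim71 45.3 (18.3 to 74.7), and these neighbours did not differ beyond their spread. Drosha averaged 26.6 (19.8 to 36.9), Xpo5 19.7, Dgcr8 16.2 and Tarbp2 15.7, whose ranges overlap one another. The longest Tarbp2 transcript in the annotation keeps an intron, so its value per kilobase is low if that form is rare. Ago2 averaged 9.45, Dicer1 6.94 and Ago1 4.59. Lin28b was last at 2.42 (2.02 to 2.61), below every library of the other genes. Lin28b is the paralog of Lin28a that is known from fetal tissue and tumours. In tag libraries, where a transcript is counted once whatever its length, the highest mean levels in CPM of UMIs were those of Ago2 (165 ± 142, SD, n = 8), Trim71 (124 ± 43.3), Lin28a (122 ± 114) and Drosha (116 ± 47.5), which overlap widely. Lin28b was again last, at 6.89 ± 6.33 CPM.

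**Figure D2:**
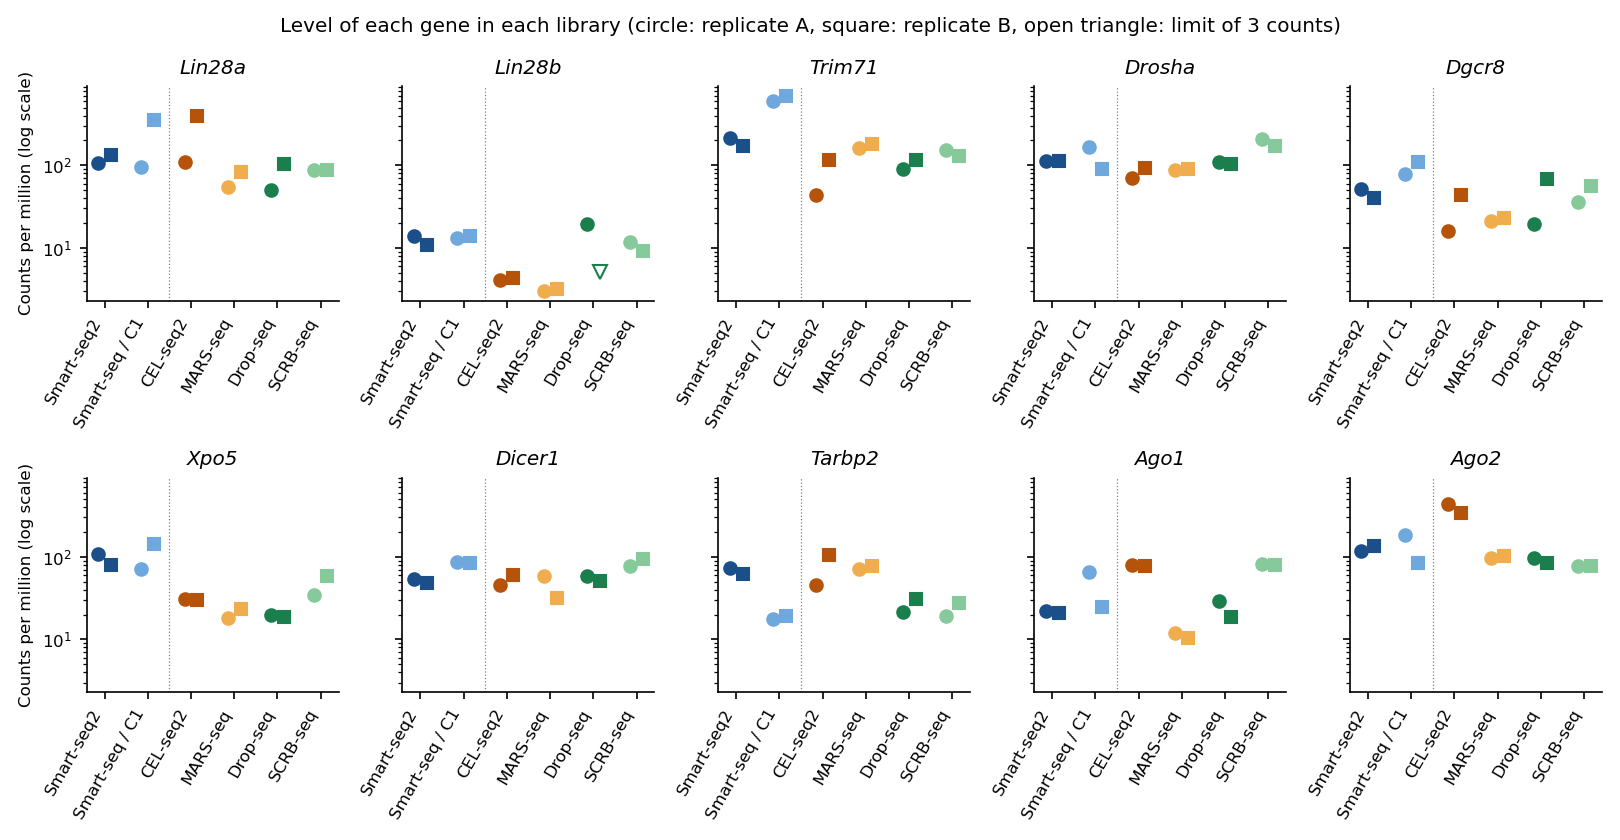
Level of each gene (CPM, log axis) in every library, with Smart-seq2 at the left, then Smart-seq / C1, CEL-seq2, MARS-seq, Drop-seq and SCRB-seq. Circles are libraries A and squares libraries B, and the open triangle is the limit that 3 counts set. Trim71 is highest in Smart-seq / C1, Ago2 in CEL-seq2 and Lin28b low in every library, with 0 counts in Drop-seq B.

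Of the 10 genes, 7 differed among the 6 methods in a joint test (edgeR quasi-likelihood, adjusted p below 0.05), against 65.4% of all genes tested, so the share is near the background. The lowest joint adjusted p-values were those of Trim71 (1.37e-05), Ago2 (2.80e-05), Ago1 (0.000217), Tarbp2 (0.000715) and Xpo5 (0.000739). Drosha (0.0372) and Dgcr8 (0.0474) passed narrowly: Drosha kept its call in 3 of the 12 fits that left out 1 library (those without Smart-seq / C1 A, Smart-seq / C1 B or CEL-seq2 B) and lost it in the other 9 (adjusted p of 0.0945 to 0.260), and Dgcr8 in 3 (without Smart-seq / C1 B, 0.265; without MARS-seq A, 0.0597; without MARS-seq B, 0.0576). Lin28a (0.0564), Dicer1 (0.123) and Lin28b (0.413) did not pass. Lin28a passed in 5 of the 12 such fits, with 0.00148 and 0.0109 when A or B of Smart-seq / C1 was left out, 0.00328 without CEL-seq2 A, 0.0403 without MARS-seq B and 0.0463 without Drop-seq B. It passed also with the DESeq2 test (0.0166) and with no filter on low counts (2.59e-08), and Lin28b passed without Drop-seq A (0.0258). The joint call of Dgcr8 was lost with DESeq2 size factors (0.0730), the DESeq2 test (0.0504) and limma (0.0592), and that of Drosha with no filter (0.0774).

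Between full-length and tag methods, 3 of the 10 genes were higher in full-length libraries (25.6% of all genes were) and 0 were lower (23.2% of all genes were). Between Smart-seq2 and Smart-seq / C1, 1 was higher in Smart-seq2 (6.81% of all genes) and 1 was lower (8.75%). Between in vitro transcription and PCR tag methods, 2 were higher with in vitro transcription (9.14%) and 0 lower (12.9%). Between CEL-seq2 and MARS-seq, 3 passed, 2 higher and 1 lower in CEL-seq2 (23.4% of all genes passed in either direction). Between Drop-seq and SCRB-seq 0 passed edgeR's adjusted test (1.51% of all genes did). The DESeq2 test called 1, Ago1, and 954 genes in all. In edgeR 3 had an unadjusted p under 0.05, with no share of all genes to set beside them. The median log2 fold change of the 10 genes was 0.28 against 0.21 for all genes in the first of these comparisons, -0.71 against -0.11 in the second, -0.23 against -0.08 in the third, 0.33 against 0.19 in the fourth and -0.38 against -0.09 in the fifth.

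**Figure D3:**
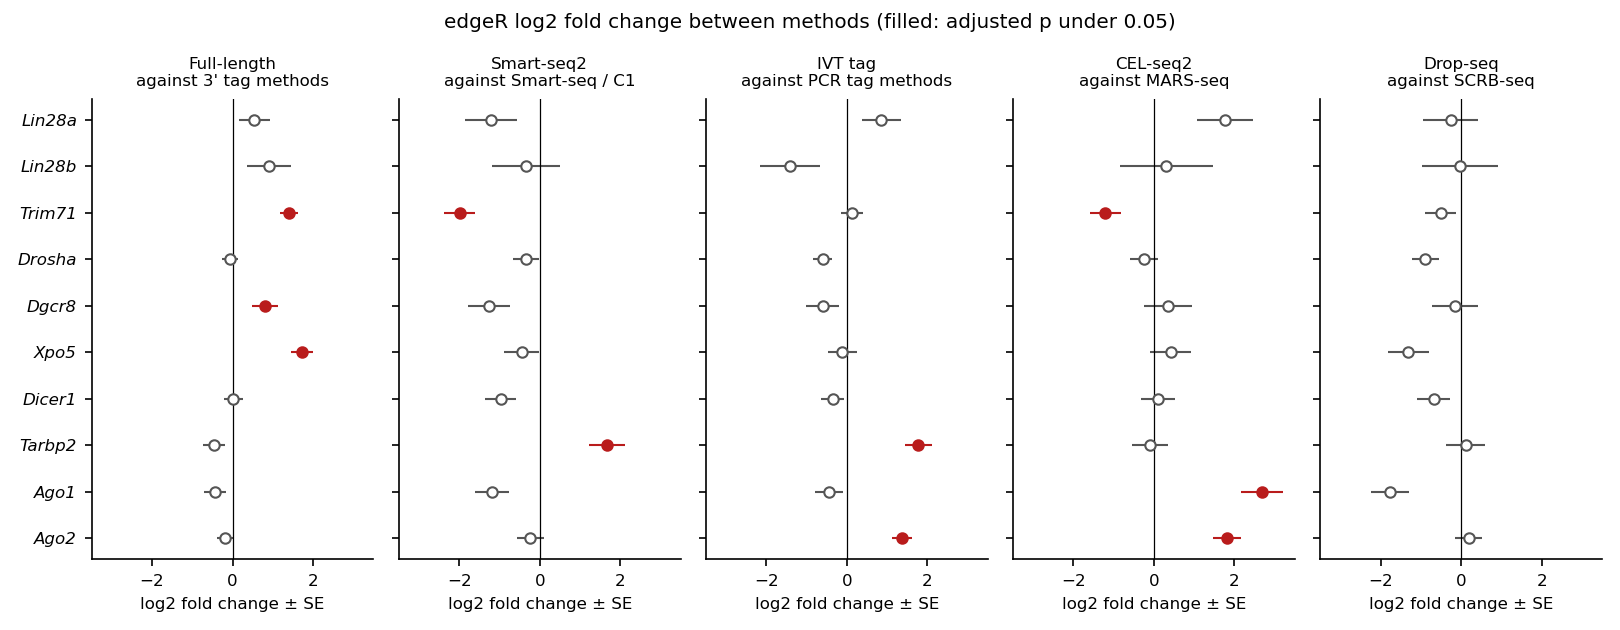
Log2 fold change of each gene in the 5 comparisons, first-named methods over second-named, with bars of 1 SE; filled points passed an adjusted p of 0.05 in edgeR. Trim71 passed 3 comparisons, Tarbp2 and Ago2 2 each, and Xpo5, Dgcr8 and Ago1 1 each.

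Lin28a, which encodes the let-7 binding protein that recruits the tailing enzymes, had 108 and 132 CPM in Smart-seq2 A and B, against 94.5 and 355 in Smart-seq / C1. It had 110.0 and 399 CPM in CEL-seq2, against 54.0 and 82.9 in MARS-seq. It had 50.9 and 103 CPM in Drop-seq, against 88.0 and 86.7 in SCRB-seq. The high values were the B libraries of the methods run on the C1 chip, while the A libraries of both lay among those of the other methods. Library B exceeded A by 1.91 (log2) in Smart-seq / C1, a gap as large as in 6.68% of 8311 genes at or above 10 CPM, and by 1.85 in CEL-seq2, as in 5.29% of 8689. These are differences between replicates of 1 method, and no test sets them apart.

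With all 12 libraries, the filter on low counts and no replicate block, no comparison called Lin28a in edgeR. Its log2 fold change was 0.54 for full-length over tag methods (SE 0.39, edgeR adjusted p = 0.282), -1.21 for Smart-seq2 over Smart-seq / C1 (SE 0.65, 0.236), 0.86 for in vitro transcription over PCR (SE 0.49, 0.231) and 1.76 for CEL-seq2 over MARS-seq (SE 0.69, 0.0859). For Drop-seq over SCRB-seq it was -0.26 (SE 0.69, 0.890). These values turned on the chip libraries. Without Smart-seq / C1 B the first became -0.07 and the second 0.34, whereas without Smart-seq / C1 A they became 1.06 (edgeR adjusted p = 0.0113) and -1.91 (0.0219). CEL-seq2 over MARS-seq was 2.53 (0.0106) without CEL-seq2 A, and passed also without Smart-seq / C1 A (1.78, 0.0182) or B (1.78, 0.0160). Without CEL-seq2 B, full-length over tag was 0.91 (0.0379). With no filter on low counts, 4 of the 5 comparisons called Lin28a: full-length over tag (0.77, edgeR adjusted p = 0.00618), Smart-seq2 over Smart-seq / C1 (-1.16, 0.0402), in vitro transcription over PCR (0.84, 0.0393) and CEL-seq2 over MARS-seq (1.85, 0.000299). Limma on the mean CPM of cells also called the last (1.77, 0.0420).

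Lin28b, the paralog, had 14.1 and 10.9 CPM in Smart-seq2, against 13.2 and 14.1 in Smart-seq / C1. The tag libraries had 4.04 and 4.31 CPM in CEL-seq2, against 3.0 and 3.15 in MARS-seq. Drop-seq had 19.5 and 0 CPM, against 11.8 and 9.28 in SCRB-seq. In counts, MARS-seq held 2 and 3 UMIs, CEL-seq2 5 and 12, and Drop-seq 18 in A and 0 in B. The 0 in Drop-seq B allows up to 5.14 CPM (3 counts of the library) if UMIs are independent draws, and A lies above this. In Drop-seq A the upper quartile over barcodes was 0 CPM, so its 18 UMIs came from a minority of barcodes. The limit therefore does not show that A and B differ, and over barcodes their intervals overlap, as given below. No comparison called Lin28b with all 12 libraries. Its log2 fold change for full-length over tag methods was 0.91 (SE 0.55, edgeR adjusted p = 0.184) and became 3.60 (0.00228) without Drop-seq A, when Drop-seq is left with its library at 0. For in vitro transcription over PCR it was -1.42 (SE 0.74, 0.183), -1.93 (0.0436) without Drop-seq B and 3.37 without Drop-seq A. A fitted fold against a library at 0 is no bound.

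Trim71 encodes a ubiquitin ligase and RNA-binding protein of stem cells that is among the best known let-7 targets. It had 214 and 171 CPM in Smart-seq2, against 609.8 and 697 in Smart-seq / C1. It had 43.7 and 117 CPM in CEL-seq2, against 164 and 179 in MARS-seq, and 91 and 115 in Drop-seq, against 152 and 130.3 in SCRB-seq. Both Smart-seq / C1 libraries lay above all 10 others, and CEL-seq2 A lay below all others. The share of all genes with a method placed so was not taken. Full-length and tag libraries overlapped, since Smart-seq2 B lay below MARS-seq B.

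Trim71 was higher in full-length than in tag methods, by 1.40 on the log2 scale (SE 0.22, edgeR adjusted p = 4.94e-05), a call kept in all 12 fits without 1 library (1.41 to 1.69). That average rests largely on Smart-seq / C1. Every one of the 12 fits kept a Smart-seq / C1 library, so they do not show the difference for Smart-seq2 alone. In Smart-seq2 Trim71 had 214 and 171 CPM, near the 164 and 179 of MARS-seq. It was lower in Smart-seq2 than in Smart-seq / C1, by a log2 fold change of -1.99 (SE 0.39, 0.00216), and the call was lost without Smart-seq2 B (-1.85, 0.0572). It was lower in CEL-seq2 than in MARS-seq (-1.20, SE 0.39, 0.0334). That call was lost in 9 of the 12 fits without 1 library, where the adjusted p was 0.0512 to 0.325, and kept in those without CEL-seq2 B or either Smart-seq / C1 library. The fold change was -0.55 without CEL-seq2 A and -2.11 (0.00366) without CEL-seq2 B. In vitro transcription over PCR was 0.13 (SE 0.28, 0.780) and Drop-seq over SCRB-seq -0.51 (SE 0.39, 0.525).

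Drosha, the nuclear RNase III that cuts primary microRNAs, had 112 and 114 CPM in Smart-seq2, against 169 and 90.4 in Smart-seq / C1. It had 71.2 and 91.6 in CEL-seq2, against 87.1 and 89.2 in MARS-seq, and 108 and 103 in Drop-seq, against 206 and 174 in SCRB-seq. SCRB-seq had both libraries above those of the other 5 methods, with no share of all genes to set beside this. Full-length and tag libraries overlapped. No single comparison called Drosha in edgeR: its log2 fold change was -0.89 for Drop-seq over SCRB-seq (SE 0.33, edgeR adjusted p = 0.177), -0.59 for in vitro transcription over PCR (SE 0.24, 0.0822), -0.34 for Smart-seq2 over Smart-seq / C1 (SE 0.32, 0.501), -0.25 for CEL-seq2 over MARS-seq (SE 0.34, 0.641) and -0.05 for full-length over tag (SE 0.20, 0.874). In vitro transcription over PCR was called by the DESeq2 test (-0.62, 0.0422) and by limma on the mean CPM of cells (-0.73, 0.0318).

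Dgcr8, whose protein recognises the stem of the primary microRNA for Drosha, had 51.5 and 40.6 CPM in Smart-seq2, against 79.2 and 108 in Smart-seq / C1. It had 16.2 and 43.8 in CEL-seq2, against 21.0 and 23.1 in MARS-seq, and 19.5 and 68.6 in Drop-seq, against 35.5 and 55.7 in SCRB-seq. Full-length and tag libraries overlapped through Drop-seq B, SCRB-seq B and CEL-seq2 B. Smart-seq2 lay within the range of the tag libraries, and only the Smart-seq / C1 libraries lay above it. In Drop-seq, B exceeded A by 1.79 (log2), a gap as large as in 3.76% of 9229 genes. Dgcr8 was higher in full-length methods by a log2 fold change of 0.80 (SE 0.32, edgeR adjusted p = 0.0478), a call at the threshold. It was lost without Smart-seq2 A (0.87, 0.0749) or Smart-seq / C1 B (0.73, 0.0874), and with DESeq2 size factors (0.65, 0.109) or the DESeq2 test (0.65, 0.112), and the value reached 1.32 (0.00317) without Drop-seq B. Smart-seq2 over Smart-seq / C1 was -1.26 (SE 0.52, 0.110), and -1.58 (0.0497) without Smart-seq / C1 A.

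Xpo5, which carries the precursor hairpin to the cytoplasm, separated full-length from tag libraries completely. It had 109 and 79.0 CPM in Smart-seq2, against 71.0 and 142 in Smart-seq / C1. The tag libraries had 30.7 and 30.2 CPM in CEL-seq2, against 18.0 and 23.1 in MARS-seq, and 19.5 and 18.9 in Drop-seq, against 34.2 and 58.9 in SCRB-seq. The lowest full-length library lay above the highest tag library, as for 17.5% of all genes tested in either direction. The log2 fold change of full-length over tag methods was 1.72 (SE 0.27, edgeR adjusted p = 4.62e-05) and stayed called in all 12 fits without 1 library (1.48 to 2.14). For comparison, the median over all genes of this fold change was 0.50 for transcripts of 4000 to 8000 nt, the length class of Xpo5, and 0.46 above 8000 nt, that of Trim71. Drop-seq over SCRB-seq was -1.31 (SE 0.51, 0.190), with the 2 Drop-seq libraries below both SCRB-seq libraries.

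Dicer1, the cytoplasmic RNase III, had 53.6 and 47.8 CPM in Smart-seq2, against 87.2 and 84.8 in Smart-seq / C1. It had 45.3 and 60 in CEL-seq2, against 58.5 and 31.5 in MARS-seq, and 58.5 and 51.4 in Drop-seq, against 77.1 and 95.1 in SCRB-seq. Smart-seq / C1 and SCRB-seq were the 2 methods with both libraries above all others, and the share of all genes placed so was not taken. No comparison called Dicer1 in edgeR, the nearest being Smart-seq2 over Smart-seq / C1 (log2 fold change -0.97, SE 0.38, adjusted p = 0.0954), which the DESeq2 test called (-0.99, 0.0351). Full-length over tag was 0.02 (SE 0.24, 0.992).

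Tarbp2 encodes the double-stranded RNA binding partner of Dicer1, known as TRBP. It had 74.0 and 61.1 CPM in Smart-seq2, against 17.5 and 19.0 in Smart-seq / C1. It had 45.3 and 107 in CEL-seq2, against 72.0 and 77.6 in MARS-seq, and 21.7 and 30.9 in Drop-seq, against 19.3 and 27.4 in SCRB-seq. The libraries fell in 2 ranges that did not overlap: 45.3 to 107 CPM in Smart-seq2, CEL-seq2 and MARS-seq, and 17.5 to 30.9 in Smart-seq / C1, Drop-seq and SCRB-seq. This division was made after the values were seen, and it cuts across full-length and tag methods. How many of all genes can be divided in such a way was not counted. Tarbp2 was higher in Smart-seq2 than in Smart-seq / C1 (log2 fold change 1.67, SE 0.44, edgeR adjusted p = 0.0159), a call lost without Smart-seq2 A (1.63, 0.132), Smart-seq2 B (1.78, 0.0882) or Smart-seq / C1 A (1.48, 0.0539). With in vitro transcription over PCR it was 1.77 (SE 0.34, 0.00132), called in all 12 fits without 1 library (1.39 to 2.02). The part in these differences of the words that Tarbp2 shares with other genes was not tested.

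Ago2, the Argonaute with slicer activity, had 117 and 135 CPM in Smart-seq2, against 184 and 85.2 in Smart-seq / C1. It had 437 and 344 in CEL-seq2, against 97.6 and 103 in MARS-seq, and 97.5 and 84.0 in Drop-seq, against 78.4 and 77.4 in SCRB-seq. Both CEL-seq2 libraries stood above all 10 others, with no share of all genes to set beside this. Ago2 was higher in CEL-seq2 than in MARS-seq by a log2 fold change of 1.82 (SE 0.35, edgeR adjusted p = 0.00106), kept in all 12 fits without 1 library (1.77 to 1.99). In vitro transcription over PCR was 1.37 (SE 0.24, 0.000757), also kept in all 12 (1.22 to 1.45). That average rests largely on CEL-seq2, since MARS-seq, at 97.6 and 103 CPM, lay near Drop-seq, at 97.5 and 84.0. Every one of the 12 fits kept a CEL-seq2 library, so they do not show the difference for MARS-seq alone. Full-length over tag was -0.19 (SE 0.20, 0.482), and Drop-seq over SCRB-seq 0.19 (SE 0.34, 0.823).

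Ago1, an Argonaute that silences without slicing, had 22.4 and 20.7 CPM in Smart-seq2, against 65.1 and 24.6 in Smart-seq / C1. It had 80.1 and 77.6 in CEL-seq2, against 12 and 10.5 in MARS-seq, and 29.3 and 18.9 in Drop-seq, against 82.8 and 80.7 in SCRB-seq. CEL-seq2 and SCRB-seq were high in both libraries and MARS-seq low in both, with no share of all genes to set beside this. Ago1 was higher in CEL-seq2 than in MARS-seq by a log2 fold change of 2.68 (SE 0.52, edgeR adjusted p = 0.00119), kept in all 12 fits without 1 library (2.54 to 2.79). Drop-seq over SCRB-seq was -1.77 (SE 0.47, 0.0666). It passed without Smart-seq / C1 A (-1.76, 0.0239) or B (-1.76, 0.0199), with the DESeq2 test (-1.55, 0.0336) and with no filter on low counts (-1.82, 0.0426). Smart-seq2 over Smart-seq / C1 was -1.19 (SE 0.43, 0.0667), -1.60 (0.0200) without Smart-seq / C1 B and -1.22 (0.0280) with the DESeq2 test.

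Between Drop-seq and SCRB-seq, 5 of the 10 genes had both Drop-seq libraries below both SCRB-seq libraries: Trim71, Drosha, Dicer1, Ago1 and Xpo5. Of all genes tested, 26.5% did, and none of the 5 passed edgeR's adjusted test, as given above.

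In single cells, shares of cells with a count were read after thinning each cell to 10000 counts, a depth that every cell reached. They come from 1 random draw, and over 80 shares in 8 libraries a second draw differed by a median of 4.17 and at most 17.8 percentage points. No cell type that lacks these genes was profiled, so the share that free RNA alone would give was not measured. Lin28a was seen in 62.5% and 61.0% of Smart-seq2 cells, against 43.5% and 80.3% in Smart-seq / C1. It was seen in 67.6% and 97.3% of CEL-seq2 cells, against 27.6% and 47.2% in MARS-seq, and in 38.1% and 52.9% of Drop-seq barcodes, against 48.7% and 62.2% of SCRB-seq cells. The 95% Clopper-Pearson intervals, which cover counting error only, ran from 85.8% to 99.9% for CEL-seq2 B and from 49.5% to 82.6% for CEL-seq2 A, so these replicates do not overlap. The gap between A and B was also in the median cell: 308 and 58.2 CPM in Smart-seq / C1 B and A, and 400.3 and 93.9 in CEL-seq2 B and A.

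Trim71 was seen in 91.2% and 75.3% of thinned Smart-seq2 cells, against 98.6% and 98.4% in Smart-seq / C1, and in 38.2% and 62.2% of CEL-seq2 cells, against 72.4% and 66.7% in MARS-seq. It was seen in 61.9% and 52.9% of Drop-seq barcodes, against 82.1% and 68.9% of SCRB-seq cells. With neighbouring Drop-seq barcodes joined, the shares of Trim71 were 32.0% of 25 and 71.4% of 28, so the Drop-seq values do not give an order against other methods. Ago2 was seen in all cells of CEL-seq2 (34 and 37), and in 48.3% and 52.8% of those of MARS-seq. Ago1 was seen in 55.9% and 54.1% of CEL-seq2 cells, against 3.4% and 5.6% in MARS-seq. Xpo5 was seen in 44.9% to 60% of the cells of full-length libraries and in 10.3% to 37.8% of those of tag libraries. These ranges did not overlap in this draw, but a second draw moved shares by up to 17.8 percentage points, more than the space between them. The thinned counts are reads in the first class and UMIs in the other, and no share of all genes separated in this way was taken. Tarbp2 was seen in 58.8% and 41.6% of Smart-seq2 cells, against 14.5% and 11.5% in Smart-seq / C1. Dicer1 was seen in 16.7% to 53.8%, Drosha in 39.3% to 84.6% and Dgcr8 in 8.3% to 55.7% of the cells of a library over all 12.

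Lin28b was seen in 9.8% to 15.6% of full-length cells and in 0% to 15.4% of tag cells after thinning. Without thinning it was seen in 39.3% to 52.5% of full-length cells. In Drop-seq B it was seen in 0 of 34 barcodes, which allows a share of up to 10.3% (Clopper-Pearson), against 16.7% of the 42 barcodes of A without thinning, and over barcodes the intervals of A and B overlap.

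**Figure D4:**
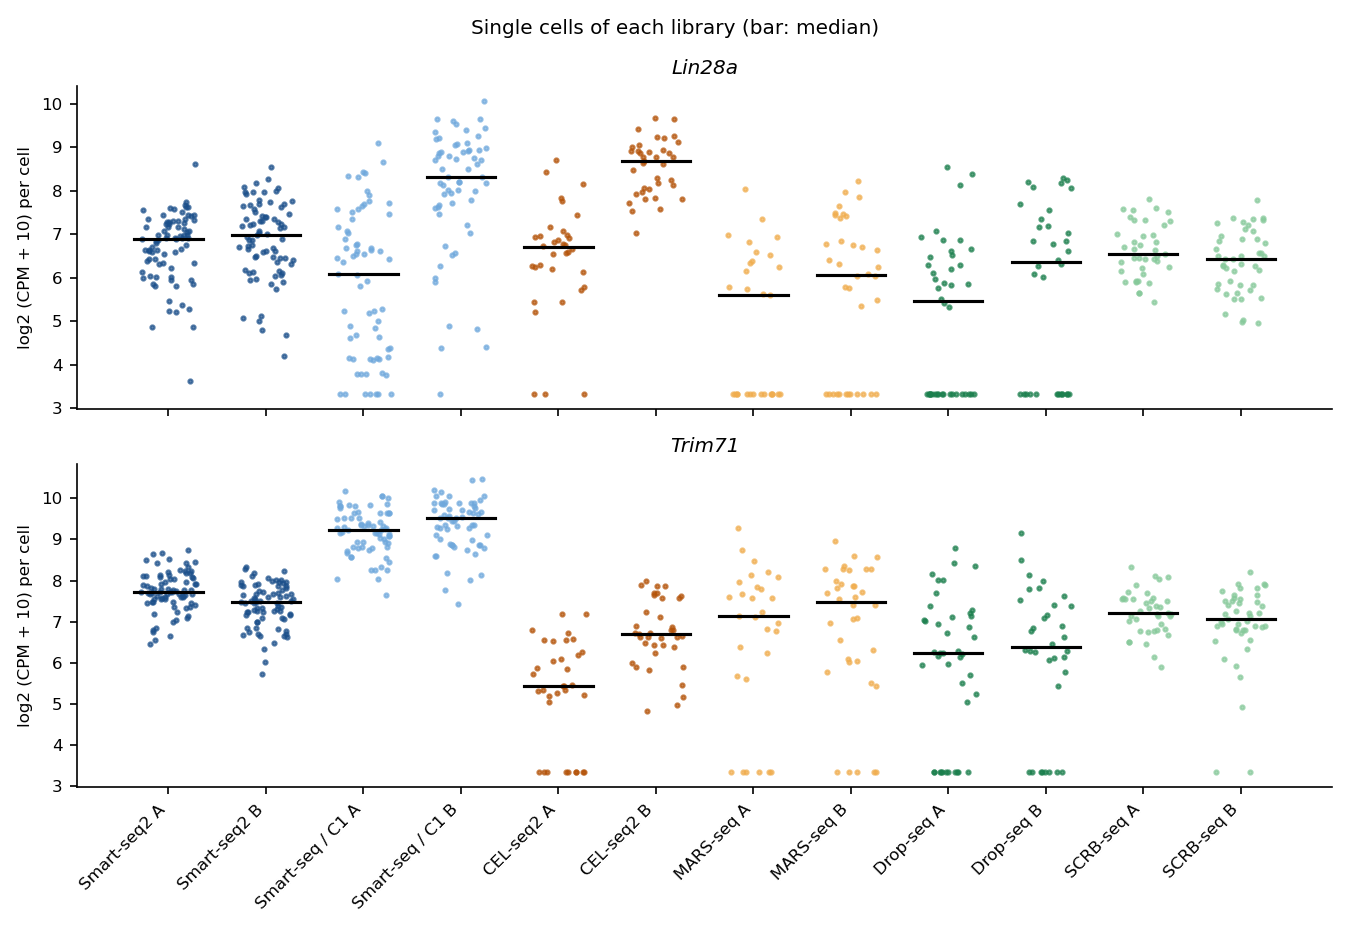
Level of Lin28a and Trim71 in each cell, as log2 of CPM plus 10, by library; bars mark the library median. For Lin28a the medians of Smart-seq / C1 B and CEL-seq2 B sit above those of the A libraries, and for Trim71 the Smart-seq / C1 medians are highest.

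**Figure D5:**
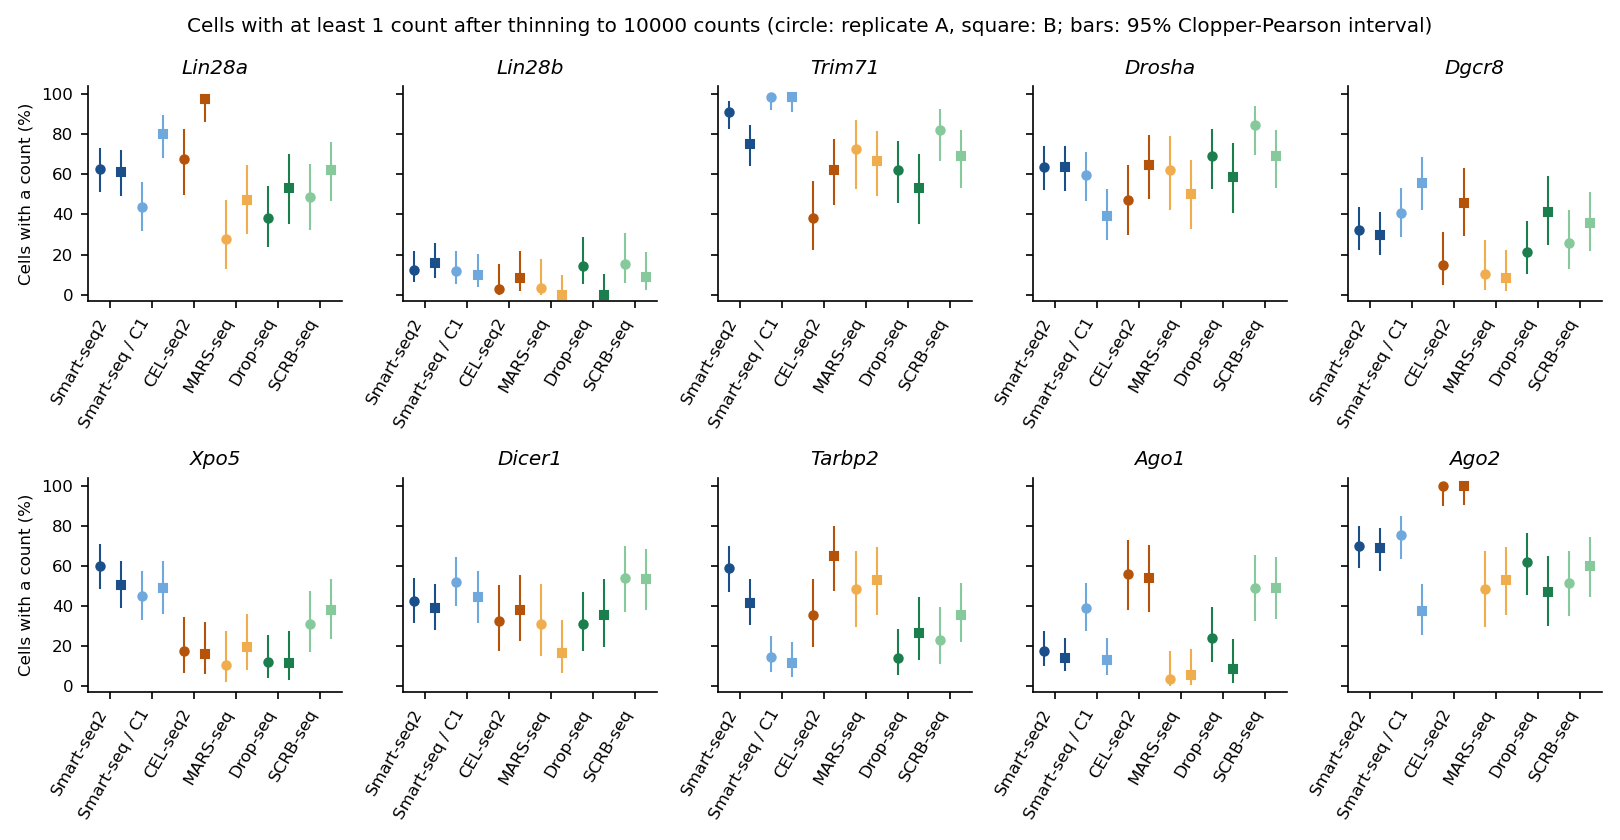
Percent of cells with at least 1 count of each gene after thinning every cell to 10000 counts, by library, with 95% Clopper-Pearson intervals. Ago2 reaches 100% in both CEL-seq2 libraries and Lin28b is 0% in MARS-seq B and Drop-seq B.

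Of the 10 genes, 5 had enough counts in every library to measure their variation among cells beyond that of genes of like mean. The residual log2 squared coefficient of variation was 0.07 for Lin28a (limma adjusted p = 0.782), -0.12 for Trim71 (0.570), 0.08 for Drosha (0.743), 0.07 for Dicer1 (0.791) and -0.15 for Ago2 (0.433). None passed limma's adjusted test or had an unadjusted p under 0.05, against 5.94% of 2641 genes that passed. Within libraries, the Spearman correlation over cells of Lin28a with Trim71 had a median of 0.04 over 11 libraries, and in counts this sparse that is no finding.

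The other genes of the pathway were read from lists of its known parts. Of all genes tested, 25.6% were higher and 23.2% lower in full-length than in tag methods, to be set beside the counts of each list. Of 8 Microprocessor partners tested, 1 was higher and 2 were lower in full-length than in tag methods, with a median log2 fold change of -0.09 against 0.21 for all genes. Hnrnpa1, an RNA-binding protein known to bind let-7 and miR-18a precursors, was lower in full-length methods (log2 fold change -1.91, SE 0.24, edgeR adjusted p = 3.85e-06). Srrt, which links the cap-binding complex to the Microprocessor, was higher in CEL-seq2 than in MARS-seq (2.58, 2.27e-05). The helicase Ddx5 was lower with in vitro transcription than with PCR (-0.96, 0.00684). Of 4 export and Dicer partners, 1 was higher in full-length methods, the exportin Xpo1 (1.10, 0.000489), which was also lower in Smart-seq2 than in Smart-seq / C1 (-2.39, 0.000552). Ran, the GTPase that exportins need, was lower in CEL-seq2 than in MARS-seq (-1.40, 0.00952).

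Of 6 genes of let-7 tailing and decay, 2 were higher and 1 lower in full-length methods (median -0.22). Tut4, a uridylyltransferase that LIN28A recruits to pre-let-7, was lower in full-length than in tag methods (log2 fold change -1.02, edgeR adjusted p = 0.00157) and lower in Smart-seq2 than in Smart-seq / C1 (-2.31, 0.000614). Its paralog Tut7 was lower with in vitro transcription than with PCR (-1.90, 0.00379). The nuclease Xrn2 was higher in full-length methods (0.57, 0.0263). Of 13 Argonaute and silencing partners tested, 4 were higher and 3 lower in full-length methods (median 0.33). Between Drop-seq and SCRB-seq 1 differed, as did 1.51% of all genes. That gene was Pabpc1, the poly(A) binding protein, which was higher in Drop-seq (1.88, 0.00422) and lower in full-length than in tag methods (-1.69, 1.28e-06). The chaperone Hspa8, which helps load Argonaute, was higher in full-length methods (1.92, 7.36e-06) and lower in CEL-seq2 than in MARS-seq (-5.86, 1.35e-06). It had 4.04 and 4.31 CPM in CEL-seq2, against 149 and 299 in MARS-seq. CEL-seq2 is among the tag methods averaged in the full-length comparison. Its low level therefore enters both values, and they are not separate results.

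Of 21 let-7 targets, a list that holds Lin28a, Lin28b, Trim71 and Dicer1 themselves, 4 were higher and 3 lower in full-length methods, with a median log2 fold change of 0.02. Between Smart-seq2 and Smart-seq / C1, 2 were higher and 4 lower, against 6.81% and 8.75% of all genes. Between CEL-seq2 and MARS-seq 4 were higher and 2 lower, and 23.4% of all genes passed in either direction. The oncogene Nras was higher in full-length than in tag methods (2.00, edgeR adjusted p = 1.62e-07) and lower in Smart-seq2 than in Smart-seq / C1 (-2.11, 0.000579). The chromatin protein Hmga1 had the opposite signs (-1.49, 3.61e-05, and 2.08, 0.00093). Among 3 genes that Trim71 is known to repress, Egr1, an immediate early transcription factor, was higher in full-length methods (2.13, 0.00636) and lower in Smart-seq2 than in Smart-seq / C1 (-7.50, 0.000105). Egr1 had 1.26 and 2.21 CPM in Smart-seq2, against 533 and 74.7 in Smart-seq / C1, so the C1 replicates differed widely as well. The higher average of the full-length methods thus rests on Smart-seq / C1. The cell cycle inhibitor Cdkn1a was higher with in vitro transcription than with PCR (2.03, 0.00042). In the joint test over methods, 6 of 8 Microprocessor partners, 3 of 4 export and Dicer partners, 5 of 6 tailing genes, 11 of 13 silencing partners, 12 of 21 let-7 targets and all 3 Trim71 targets passed, beside the background of 65.4% of all genes.

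The rows of microRNA genes themselves held little. Of 1894 such rows, 515 had a count, and they held 31670 counts in all 583 cells. The 10 rows of let-7 family genes held 12 counts, 10 in full-length and 2 in tag libraries, of which 8 were in Mirlet7g. Each such count is a read or UMI from the locus of the hairpin. The row of Mir1306, whose hairpin lies within the Dgcr8 transcript, held 0 counts. Of the miR-290 cluster, whose rows were chosen after their values were seen, Mir295 had the most, with 763 counts in full-length and 128 in tag libraries, followed by Mir293 (441 and 6) and Mir294 (397 and 50). Scaled to the depth of each class, Mir295 had 7.39 CPM in full-length and 11.05 in tag libraries, Mir294 3.84 and 4.32, and Mir293 4.27 and 0.518. Its rows summed to 16.9 and 13.3 CPM in Smart-seq2, against 31.3 and 26.2 in Smart-seq / C1. They summed to 2.43 and 0.359 CPM in CEL-seq2, against 9.01 and 13.6 in MARS-seq, and to 24.9 and 22.3 in Drop-seq, against 23.7 and 40.3 in SCRB-seq. CEL-seq2 was the lowest method, on 3 and 1 counts, and the share of all rows placed so was not taken. The host transcripts of 2 other clusters passed with opposite signs: Mir17hg was higher in full-length methods (log2 fold change 1.16, edgeR adjusted p = 0.0138) and lower with in vitro transcription than with PCR (-2.18, 0.00506), and Mirg was lower in full-length methods (-1.28, 0.0127) and higher with in vitro transcription (2.21, 0.00363).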

How the data were processed

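The members and lists were chosen with earlier results of these data known. For CEL-seq2, MARS-seq, Drop-seq and SCRB-seq the deposited values are counts of UMIs. The submitters' processing notes name the Drop-seq pipeline, STAR 2.4.0 with its defaults, mm10 and assignment to genes by exon. The whole-number counts that the authors deposited for the Smart-seq methods were taken as reads; the tool that counted them and the annotation are not given in the sources used here. Columns were mapped to cells by name. GENCODE M21 (GRCm38, also called mm10) matched 37607 of 38924 identifiers; the other 1317 held 0.297% of counts and stayed in. The 92 spike-in rows stayed out.

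Cells of a library are not replicates, so counts were summed per library (12 libraries, 2 per method). Levels in the text are CPM of the library's gene total. Genes passing edgeR 4.0.16 filterByExpr by method (14293) were scaled by TMM and fitted with a quasi-likelihood model of 1 mean per method, with Benjamini-Hochberg adjustment over all of them; fold changes are log2 and average methods there. Variation among cells was tested with limma 3.58.1 on cells thinned to 10000 counts. R was 4.3.3. All cells were kept, and doublets were not called. Both fits were tested on simulated data. Alternatives were DESeq2 1.42.0 size factors and its test, no filter, limma on mean CPM of cells, a replicate block, thinning to 5000, joined Drop-seq barcodes and leaving out each library. Named genes were all members and, per list, at most 3 genes with the smallest joint p and the 1 with the highest average; others are said to be chosen after their values were seen. Sequences are from RefSeq (GRCm38.p6) and GENCODE M21 transcripts checked against that genome.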

Additional observations from a re-analysis of the deposited data

Results flagged for a closer look

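Among 20 groups of libraries examined (each of the 10 genes in the 4 full-length and in the 8 tag libraries), 2 held a library far from the others, and chance flags about 1 in 20 groups. Gaps and ranges were taken on the log2 scale. Lin28a had 399 CPM in CEL-seq2 B, the highest of the 8 tag libraries, with a gap to the next one of 0.628 of the whole log2 range. Ago1 had 65.1 CPM in Smart-seq / C1 A, the highest of the 4 full-length libraries, with a gap of 0.849 of the log2 range.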

How the results depend on the processing

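Counts within 1.5 times of those reported are not listed. With the DESeq2 test, 4 members passed for Smart-seq2 over Smart-seq / C1, where 3088 genes passed in all, against 2223 in edgeR. With that test 1 member passed for Drop-seq over SCRB-seq, and with no filter 1 did. For Drop-seq over SCRB-seq, 216 genes passed in all, against 325 with DESeq2 size factors, 954 with the DESeq2 test, 469 with no filter and 583 with limma on mean CPM of cells. Of these 216, 68.1% were higher, against 86.2% with size factors and 82.9% with the DESeq2 test; for Smart-seq2 over Smart-seq / C1 43.8% were, against 60.2% with limma. Thinning to 5000 counts lowered the genes of differing variation to 41, against 157, and moved 75 of 120 shares of cells; joining Drop-seq barcodes moved 3 of 20.

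The log2 fold change turned sign, with no call on either side, for Drosha in full-length over tag (0.16 with no filter, 0.13 with limma), Dicer1 (-0.13 with size factors and with the DESeq2 test) and Ago2 (0.028 with no filter). It did so for Ago2 in Smart-seq2 over Smart-seq / C1 (0.037, limma), Trim71 in in vitro transcription over PCR (-0.18, limma) and Dicer1 in CEL-seq2 over MARS-seq (-0.074 with size factors, -0.061 with the DESeq2 test). In Drop-seq over SCRB-seq it did so for Lin28b (0.21 and 0.20) and Dgcr8 (0.047 and 0.053) under those 2 settings. The residual variation turned for Lin28a (-0.018 with joined barcodes) and Drosha (-0.0081 at 5000 counts, -0.14 with joined barcodes). The median over all genes moved by more than 0.1 under some scalings: for full-length over tag it was 0.07 with size factors, against 0.21. The cause of these changes was not tested.

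Without each library in turn, genes called ranged from 6069 to 8080 for full-length over tag, 609 to 3305 for Smart-seq2 over Smart-seq / C1, 1746 to 3845 for in vitro transcription over PCR, 1779 to 3932 for CEL-seq2 over MARS-seq, 11 to 626 for Drop-seq over SCRB-seq, 7978 to 11000 in the joint test and 78 to 175 for variation. Members called ranged from 2 to 4, 0 to 3, 2 to 3, 2 to 4, 0 to 1, 5 to 8 and 0 to 0 in that order; 0 passed for Smart-seq2 over Smart-seq / C1 without Smart-seq2 B and 1 without Smart-seq2 A. Fold changes that turned sign ranged, for full-length over tag, from -0.068 to 1.06 for Lin28a, -0.045 to 0.26 for Drosha and -0.24 to 0.15 for Ago2. For Smart-seq2 over Smart-seq / C1 the ranges were -1.91 to 0.34 for Lin28a, -0.54 to 0.23 for Ago2 and -0.94 to 0.40 for Xpo5. For in vitro transcription over PCR they were -1.93 to 3.37 for Lin28b, -0.33 to 0.40 for Trim71 and -0.34 to 0.12 for Xpo5. For CEL-seq2 over MARS-seq they were -0.58 to 0.98 for Dgcr8, -0.45 to 0.048 for Drosha, -0.29 to 0.63 for Dicer1 and -0.86 to 0.50 for Tarbp2. For Drop-seq over SCRB-seq they were -0.68 to 0.21 for Lin28a, -9.63 to 0.98 for Lin28b, -1.13 to 0.56 for Dgcr8 and -0.059 to 0.37 for Tarbp2. Residual variation ranged from -0.022 to 0.16 for Lin28a, -0.0024 to 0.15 for Drosha and -0.013 to 0.14 for Dicer1. Where a method is left with 1 library, it is assumed to vary like the others.

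Whether libraries of the same letter share a culture or a batch is not given. Over 15 pairs of methods, the correlation of same-lettered deviations was -0.08 to 0.08, and 0 pairs were over 0.1. Taken over all genes, such a correlation cannot exclude a shared origin, nor an effect of one on single genes. With the replicate block, 6815, 2074, 2961, 3169 and 183 genes passed the 5 comparisons and 148 that of variation, and the block changed 2 calls of members, both of Lin28a: 1.59 (edgeR adjusted p = 0.0267) for CEL-seq2 over MARS-seq, and 0.0134 in the joint test. Depth limits Lin28b most, with 0 to 18 UMIs in the MARS-seq, CEL-seq2 and Drop-seq libraries.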

Other observations

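Over the 12 libraries, the genes whose log level followed that of Lin28a most closely were Dimt1 (Pearson r = 0.878), Exoc5 (0.874), Ube2d3 (0.862), Yipf5 (0.860) and Glud1 (0.860), of 14292 genes compared. The points share their method, and the values are a description. Across cells, Rpl41 had the highest mean Spearman correlation with Lin28a within libraries, at 0.136 of 505 genes compared, followed by Rps9 (0.132), Dstn (0.118), Hells (0.108) and Ptges3 (0.102), and values this weak in sparse counts are no finding.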
